A study of Mus musculus with 12 samples.

Results

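The core B-lineage transcription factors described here are 10 genes, Pax5, Ebf1, Tcf3, Tcf4, Tcf12, Id2, Id3, Foxo1, Bach2 and Lef1, of the 19938 genes that the array names through a transcript cluster with a single gene symbol. Their clusters were taken by gene symbol alone, and each gene was measured by 1 cluster. The genes themselves were named from general knowledge, with earlier results of these data known. RNA came from bone-marrow pro-B cells purified from mice of 1 month kept free of specific pathogens, and it was hybridised to 12 Affymetrix Mouse Gene 1.0 ST arrays. The groups had 4 arrays each. They were Cd72+/-;Pax5+/- mice, which are heterozygous at both genes (doubly heterozygous below), Pax5+/- mice, heterozygous at Pax5 alone, and WT mice. The tissue label gives pro-B cells for all arrays, but the titles name only the WT cells so and call the cells of both heterozygous groups preleukemic precursor B cells. Every Cd72+/-;Pax5+/- array also carries the Pax5 heterozygosity. By label, Cd72+/-;Pax5+/- and Pax5+/- mice differ at Cd72 alone, but sex also differs between these groups, as given below. Against WT, Cd72+/-;Pax5+/- mice differ at both genes, and in sex as well. How each gene was disrupted, and whether the array probes lie inside the affected part, is not stated in the available labels. Nor is it stated whether the 4 arrays of a genotype hold RNA of different mice. The p-values below therefore reflect the spread from array to array, which may be technical, and precision is limited by the number of arrays.

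B lymphocytes arise through an ordered network of transcription factors. E proteins, which are basic helix-loop-helix factors encoded by Tcf3, Tcf4 and Tcf12, bind E-box sequences and act with Foxo1 to switch on Ebf1, and Ebf1 in turn switches on Pax5, which activates B-cell genes and represses those of other lineages. Id2 and Id3 lack a DNA-binding region and hold E proteins in inactive pairs. Bach2 is a repressor that favours the B-cell fate over the myeloid and plasma-cell fates, and Lef1 is a nuclear partner of beta-catenin in Wnt signalling that pro-B cells express. In mice, Pax5 heterozygosity alone can predispose to B-cell leukaemia, and Cd72 encodes a B-cell surface co-receptor whose gene is activated by Pax5.

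Promoter windows, 250 bases before to 50 bases after an annotated start, were read from RefSeq (build GRCm38.p6) for 9 of the 10 members, which had 15 windows between them. They were searched on both strands for short motifs that these families bind. The motifs were the E-box CAGGTG, present in 20.2% of all 32851 windows, the Ebf motif CCCNNGGGA (6.56%), the Foxo motif TGTTTAC (3.65%), the Tcf/Lef motif CTTTGAA (5.14%) and TGACTCA (5.2%), to which Bach and AP-1 factors bind. Only the 4 windows below held a match, and they are shown because each places a motif of one member's family beside the start of another member. Capitals mark the matched bases, and each window runs 5′ to 3′ on the strand of its gene.
Ebf1 (chr11:44617850-44618149, plus strand): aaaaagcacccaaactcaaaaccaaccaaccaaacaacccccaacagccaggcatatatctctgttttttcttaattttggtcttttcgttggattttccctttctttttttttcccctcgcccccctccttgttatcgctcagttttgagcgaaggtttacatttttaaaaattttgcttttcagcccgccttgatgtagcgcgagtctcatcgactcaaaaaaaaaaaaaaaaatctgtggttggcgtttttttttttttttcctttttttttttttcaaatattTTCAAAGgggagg
Tcf12 (chr9:72111152-72111451, minus strand): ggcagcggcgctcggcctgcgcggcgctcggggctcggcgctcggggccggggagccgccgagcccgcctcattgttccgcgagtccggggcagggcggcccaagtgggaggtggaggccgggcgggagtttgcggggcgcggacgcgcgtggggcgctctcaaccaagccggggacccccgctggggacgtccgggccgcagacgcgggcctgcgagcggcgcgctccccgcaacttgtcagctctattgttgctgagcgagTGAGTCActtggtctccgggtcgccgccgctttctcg
Foxo1 (chr3:52268087-52268386, plus strand): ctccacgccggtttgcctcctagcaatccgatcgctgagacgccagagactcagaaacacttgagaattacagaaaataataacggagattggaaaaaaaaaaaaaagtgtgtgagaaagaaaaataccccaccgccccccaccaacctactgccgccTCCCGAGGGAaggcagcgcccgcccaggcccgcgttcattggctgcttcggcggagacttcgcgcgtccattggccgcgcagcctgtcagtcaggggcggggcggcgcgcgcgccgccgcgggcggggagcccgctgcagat
Lef1 (chr3:131110073-131110372, plus strand): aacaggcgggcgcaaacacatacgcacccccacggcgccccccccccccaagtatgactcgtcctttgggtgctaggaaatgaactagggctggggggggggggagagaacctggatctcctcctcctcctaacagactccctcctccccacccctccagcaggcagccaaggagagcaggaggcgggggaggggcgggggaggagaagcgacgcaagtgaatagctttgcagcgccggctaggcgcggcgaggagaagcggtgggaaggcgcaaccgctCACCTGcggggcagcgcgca
The Ebf1 window held the Tcf/Lef motif at position 38 after its start, and the Tcf12 window held TGAGTCA, the reverse complement of the Bach motif, at position 14. In the Foxo1 window the Ebf motif matched on both strands at positions -92 and -91, and the matches overlap. The Lef1 window held CACCTG, the reverse complement of the E-box, at position 31. A match describes these letters only. It is no evidence that a factor binds there.

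Several facts of the whole series bear on the values below. Of the transcripts that define pro-B cells, Vpreb1 was at 12.57 to 12.79 on doubly heterozygous arrays, 12.39 to 12.74 on Pax5+/- arrays and 11.95 to 12.7 on WT arrays (log2 signal), whereas Dntt, which encodes their terminal transferase, was at 8.29 to 8.85, 10.54 to 10.82 and 9.76 to 11.93 in the same order. Within Pax5+/- and WT the arrays fell into close pairs, 1 with 3 and 2 with 4 in Pax5+/-, and 5 with 7 and 6 with 8 in WT. The pairs are the split of each group with the smallest summed SD of the log2 differences over all clusters. In WT this SD was 0.113 to 0.123 within a pair and 0.261 to 0.27 across pairs. The pairs were less distinct in Pax5+/-, with 0.13 to 0.179 within and 0.192 to 0.276 across. In Cd72+/-;Pax5+/- the pairs, 9 with 10 and 11 with 12, were also less distinct than in WT, with 0.125 to 0.128 within and 0.132 to 0.187 across. For this reason each call of a member below is followed by the adjusted p obtained when the closest pairs were averaged first, which leaves 2 units per group. Xist, the transcript that coats the inactive X chromosome, was at 11.75 to 11.9 on doubly heterozygous arrays, 5.0 to 5.38 on Pax5+/- arrays and 5.09 to 5.52 on WT arrays, and the Y-linked Uty ran the other way, so in both comparisons of Cd72+/-;Pax5+/- the genotype and sex cannot be told apart. Cd72 averaged 7.51 ± 0.135 on doubly heterozygous arrays, 10.19 ± 0.111 on Pax5+/- arrays and 8.9 ± 0.51 on WT arrays (SD, n = 4 each).

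Tcf3, Tcf12 and Id2 lay apart in Pax5+/- from both other genotypes without overlap, whereas Pax5, Ebf1 and Id3 lay apart in both heterozygous groups from WT, although the Pax5 difference in doubly heterozygous cells did not pass the test. A member counts as passing at a limma adjusted p under 0.05 over the 23410 clusters with a symbol. In Cd72+/-;Pax5+/- against Pax5+/-, 3 of the 10 members passed, where 9.79% of all clusters did. Tcf3 rose (4.44% of all clusters rose), and Tcf12 and Id2 fell (5.35% fell). In Pax5+/- against WT, 6 members passed, where 7.47% of all clusters did. Ebf1, Tcf12 and Id2 rose (4.28% of all clusters rose), and Pax5, Tcf3 and Id3 fell (3.2% fell). Doubly heterozygous cells against WT gave 2 members that passed, where 7.78% of all clusters did, and Ebf1 rose (4.12% of all clusters rose) while Id3 fell (3.66% fell). The 3 comparisons share arrays, so the sets of calls are not independent of each other. No member differed by over 2-fold in any comparison, while 1.2%, 0.957% and 0.914% of all clusters did so with an unadjusted p under 0.05, in the order above. The median log2 change of the members was 0.07 in Cd72+/-;Pax5+/- against Pax5+/-, -0.14 in Pax5+/- against WT and -0.01 in Cd72+/-;Pax5+/- against WT, beside 0.005, -0.005 and 0.002 for all clusters. In the same order, the median size of the change without its sign was 0.18, 0.35 and 0.09 for the members and 0.075, 0.068 and 0.07 for all clusters. All clusters include dim ones, whereas every member but Id2 and Id3 lay at or above percentile 75.4 of the signal level of all genes. With clusters up to the 25th percentile of level left out, 2279, 1738 and 1822 of 17555 clusters passed.

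**Figure D1:**
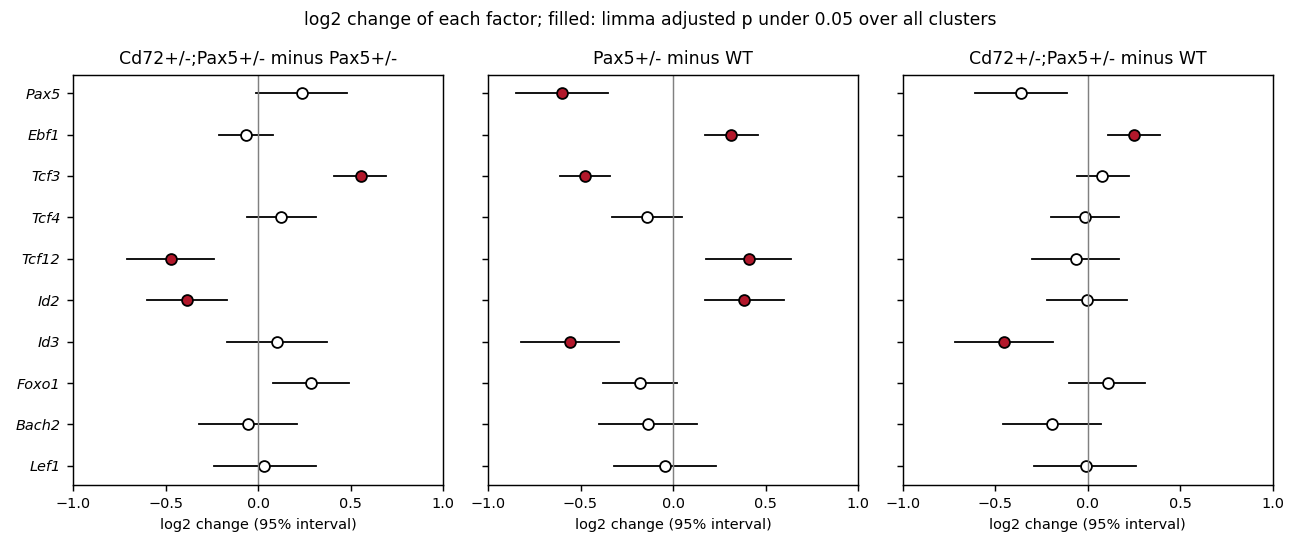
The log2 change of each of the 10 factors (x axis) in the 3 comparisons, with 95% confidence intervals from limma, filled where the adjusted p over all clusters was under 0.05. Tcf3, Tcf12 and Id2 lie on opposite sides of 0 in the left and middle panels and near 0 in the right panel.

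With the closest pairs averaged, none of the 11 calls over the 3 comparisons kept an adjusted p under 0.05 (0.0684 to 0.552), while 1.79%, 1.2% and 1.24% of all clusters passed in that fit. An unadjusted p under 0.05 was then found for 3, 6 and 1 members, beside 11.1%, 8.97% and 9.67% of all clusters. With the pairs as a random block instead, 2, 4 and 0 members passed, beside 5.97%, 4.84% and 4.4% of all clusters. The groups did not overlap for 4, 6 and 3 members, where 18.5%, 10.7% and 14.8% of all clusters showed no overlap.

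Pax5, the commitment factor and the gene for which both groups are labelled heterozygous, had signals of 11.31, 11.22, 11.18 and 11.11 on doubly heterozygous arrays 9 to 12, 10.65, 11.15, 10.87 and 11.21 on Pax5+/- arrays 1 to 4, and 11.40, 11.72, 11.49 and 11.66 on WT arrays 5 to 8. Every heterozygous array of either genotype was below every WT array. Pax5 fell by 0.60 on the log2 scale in Pax5+/- against WT (SE 0.11, 1.51-fold, adjusted p = 0.0051, and 0.289 with pairs averaged). In a bulk RNA measurement such as this, fewer cells of a type and less RNA per cell cannot be told apart. Against WT, doubly heterozygous cells differed by -0.36 (SE 0.11, 1.29-fold). The adjusted p of 0.0781 missed the threshold, although the groups did not overlap. Without overlap, as in 14.8% of all clusters, the exact two-sided permutation p is always 0.0286, the smallest that 4 arrays against 4 can give. The Pax5 difference between doubly heterozygous and WT cells passed without Pax5+/- array 1 (adjusted p = 0.0257) and when only the compared groups entered the model (0.0202). It did not pass with pairs averaged (0.592), with the pairs as a random block (0.1555) or after quantile normalization (0.1327). The Cd72+/-;Pax5+/- minus Pax5+/- difference was 0.24 with a 95% interval of -0.01 to 0.48, and these groups overlapped (adjusted p = 0.252).

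Ebf1, the pioneer factor that acts upstream of Pax5 and is maintained by it, had signals of 12.17, 12.22, 12.24 and 12.22 on doubly heterozygous arrays, 12.18, 12.31, 12.25 and 12.37 on Pax5+/- arrays, and 12.05, 11.90, 12.09 and 11.81 on WT arrays. All heterozygous arrays lay above all WT arrays. The rise was 0.32 in Pax5+/- against WT (SE 0.06, 1.24-fold, adjusted p = 0.00816, and 0.34 with pairs averaged) and 0.25 in Cd72+/-;Pax5+/- against WT (SE 0.06, 1.19-fold, adjusted p = 0.0326, and 0.474 with pairs averaged). After quantile normalization neither passed (adjusted p = 0.11 and 0.337), and the second also failed when any of arrays 6, 8, 9, 10, 11 or 12 was left out (up to 0.0885). The Cd72+/-;Pax5+/- minus Pax5+/- difference was -0.07 (95% interval -0.21 to 0.08, adjusted p = 0.636). Ebf1 was the only member to rise in both heterozygous groups.

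Among the E proteins, Tcf3 showed the clearest difference between the heterozygous groups. Tcf3 encodes E2A, which is required to begin B-cell development. Its signal was 10.95, 10.85, 10.80 and 10.73 on doubly heterozygous arrays, 10.17, 10.40, 10.21 and 10.34 on Pax5+/- arrays, and 10.71, 10.84, 10.70 and 10.77 on WT arrays. The Pax5+/- arrays lay below all others, and the doubly heterozygous and WT arrays overlapped. Tcf3 rose by 0.55 in Cd72+/-;Pax5+/- against Pax5+/- (SE 0.06, 1.47-fold, adjusted p = 9.12e-05, and 0.0684 with pairs averaged) and fell by 0.48 on the log2 scale in Pax5+/- against WT (SE 0.06, 1.39-fold, adjusted p = 0.000397, and 0.126 with pairs averaged). Both calls held whichever single array was left out. Against WT, doubly heterozygous cells differed by 0.08, with a 95% interval of -0.06 to 0.22 (adjusted p = 0.601).

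Tcf12, which encodes the E protein HEB, moved the opposite way to Tcf3. Its signal was 11.24, 11.13, 11.20 and 11.15 on doubly heterozygous arrays, 11.54, 11.68, 11.63 and 11.76 on Pax5+/- arrays, and 11.50, 11.01, 11.46 and 11.00 on WT arrays. The Pax5+/- arrays were the highest, but WT arrays 5 and 7 came within 0.1 of the lowest of them while arrays 6 and 8 were the lowest of all. Tcf12 fell by 0.47 on the log2 scale in Cd72+/-;Pax5+/- against Pax5+/- (SE 0.11, 1.39-fold, adjusted p = 0.0141, and 0.359 with pairs averaged), a call that held whichever array was left out. The rise in Pax5+/- against WT was 0.41 (SE 0.11, 1.33-fold, adjusted p = 0.037, and 0.552 with pairs averaged). It no longer passed in 9 of the 12 fits that each left out an array, namely all but those without arrays 1, 5 and 7. Over all 12 fits the adjusted p was 0.0101 to 0.108. Arrays 9 to 12 are not in this comparison, and leaving any of them out kept the difference at 0.41 and moved only the shared error and the adjustment. Against WT, doubly heterozygous cells differed by -0.06 (95% interval -0.3 to 0.17, adjusted p = 0.842).

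Tcf4, which encodes E2-2, the E protein of plasmacytoid dendritic cells that B cells also express, had signals of 10.49 to 10.60 on doubly heterozygous arrays, 10.37 to 10.50 on Pax5+/- arrays, and 10.74, 10.38, 10.77 and 10.40 on WT arrays 5 to 8. It passed in no comparison. The differences were 0.13 in Cd72+/-;Pax5+/- against Pax5+/- (95% interval -0.06 to 0.31), -0.14 in Pax5+/- against WT (-0.33 to 0.05) and -0.02 in Cd72+/-;Pax5+/- against WT (-0.2 to 0.17). Siglech, which defines plasmacytoid dendritic cells, was at 6.08 to 6.17, 6.07 to 6.34 and 6.05 to 6.11 on the Cd72+/-;Pax5+/-, Pax5+/- and WT arrays. The mean of 6 measured markers of these cells was 7.29 to 7.37, 7.15 to 7.3 and 6.96 to 7.23 in the same order. Of the 6, Bst2 and Irf7 rose and Ccr9 fell in doubly heterozygous against Pax5+/- cells, Ccr9 and Cox6a2 rose and Bst2 fell in Pax5+/- against WT, and Cox6a2 and Irf7 rose in doubly heterozygous cells against WT. In the same order of comparisons, 9.79%, 7.47% and 7.78% of all clusters passed. With the pairs averaged the rise of Bst2 alone was kept (adjusted p = 0.027). The part of such cells in the Tcf4 values was not tested.

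The inhibitors of E proteins also differed from each other. Over the 12 arrays Id2 averaged 6.382 and Id3 6.871, both below the median level of all clusters (7.135). The other members were above it. Id2, which is low in B-lineage cells and high in natural killer and innate lymphoid cells, had signals of 6.38, 6.10, 6.19 and 6.34 on doubly heterozygous arrays, 6.70, 6.47, 6.87 and 6.51 on Pax5+/- arrays, and 6.28, 6.13, 6.44 and 6.17 on WT arrays. The Pax5+/- arrays were above all others by as little as 0.03. Id2 fell by 0.39 on the log2 scale in Cd72+/-;Pax5+/- against Pax5+/- (SE 0.10, 1.31-fold, adjusted p = 0.0264, and 0.321 with pairs averaged) and rose by 0.38 in Pax5+/- against WT (SE 0.10, 1.3-fold, adjusted p = 0.0329, and 0.403 with pairs averaged). The fall failed without any of arrays 1, 3, 10 or 11 (up to 0.089), and the rise failed without any of arrays 1, 3, 5, 6 or 8 (up to 0.1). Of 9 markers of natural killer and innate lymphoid cells, Nkg7 alone was called, in the comparisons and directions of Id2. Its fall in Cd72+/-;Pax5+/- against Pax5+/- was 0.69 on the log2 scale (adjusted p = 0.00433, and 0.233 with pairs averaged). Its change between Pax5+/- and WT was 0.54, higher in Pax5+/- (adjusted p = 0.0249, and 0.456 with pairs averaged). In the same order 9.79% and 7.47% of all clusters passed, so this call in a list of 9 does not stand apart from these shares. The list medians were 0.01 and 0.02. The mean of the 9 markers was 5.57 to 5.61 on doubly heterozygous arrays, 5.59 to 5.69 on Pax5+/- arrays and 5.48 to 5.77 on WT arrays, and Ncr1, which defines these cells, was at 4.92 to 5.14, 4.87 to 5.14 and 4.78 to 5.04. The part of such cells in the Id2 result was not tested.

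Id3, an inhibitor of E proteins induced by antigen-receptor signals, ran differently from Id2. Its signal was 6.86, 6.84, 6.64 and 6.67 on doubly heterozygous arrays, 6.84, 6.48, 6.73 and 6.56 on Pax5+/- arrays, and 7.47, 6.92, 7.40 and 7.04 on WT arrays. Every heterozygous array was below every WT array, and the heterozygous groups overlapped. Id3 fell by 0.56 on the log2 scale in Pax5+/- against WT (SE 0.12, 1.47-fold, adjusted p = 0.0127, and 0.411 with pairs averaged) and by 0.46 in Cd72+/-;Pax5+/- against WT (SE 0.12, 1.37-fold, adjusted p = 0.0388, and 0.521 with pairs averaged). The first call held whichever array was left out but missed the threshold when only the compared groups entered the model (adjusted p = 0.0551). The second failed without any of arrays 3, 5, 7, 9, 10, 11 or 12 (up to 0.113). Array 3 is not in that comparison, and leaving it out moved only the shared error and the adjustment. The Cd72+/-;Pax5+/- minus Pax5+/- difference was 0.10 (95% interval -0.17 to 0.37, adjusted p = 0.712).

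**Figure D2:**
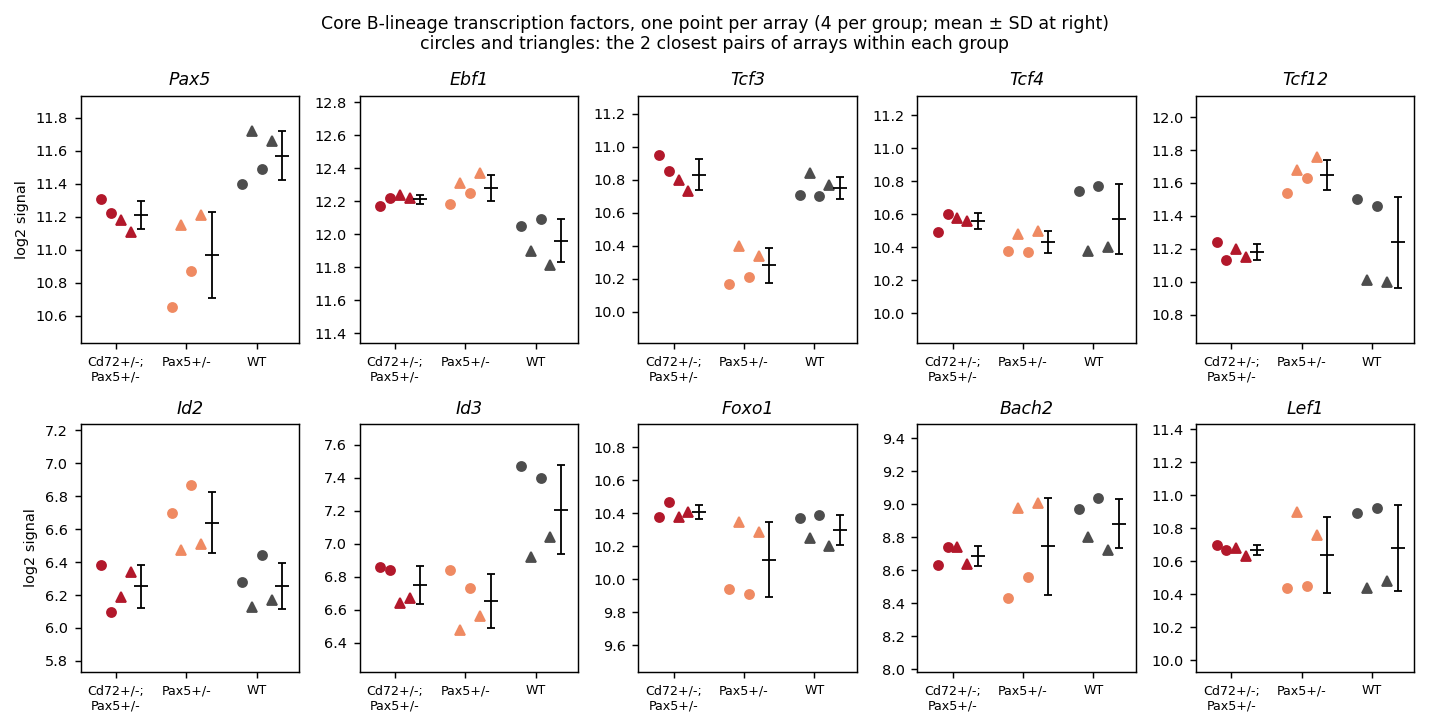
The log2 signal of each of the 10 factors on each of the 12 arrays, grouped as Cd72+/-;Pax5+/-, Pax5+/- and WT, with the mean and SD of the 4 arrays at the right of each group and circles and triangles for the closest pairs. Pax5 and Id3 are lower in both heterozygous groups than in WT, Tcf3 is lowest in Pax5+/-, and the WT arrays split by pair for Tcf4, Tcf12 and Lef1.

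Foxo1, the forkhead factor that acts with E2A and Ebf1 and drives the recombination-activating genes, had signals of 10.38, 10.47, 10.38 and 10.41 on doubly heterozygous arrays, 9.94, 10.35, 9.91 and 10.29 on Pax5+/- arrays, and 10.37, 10.25, 10.39 and 10.20 on WT arrays. Pax5+/- arrays 1 and 3 were the lowest, and all Pax5+/- arrays were below all doubly heterozygous arrays. The difference of 0.29 (SE 0.09, 1.22-fold) gave an adjusted p of 0.0791, which missed the threshold, with an exact two-sided permutation p of 0.0286. It passed without Pax5+/- array 2 (adjusted p = 0.0249). Foxo1 was -0.18 in Pax5+/- against WT (95% interval -0.38 to 0.02) and 0.11 in Cd72+/-;Pax5+/- against WT (-0.1 to 0.31).

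Bach2 had signals of 8.63, 8.74, 8.74 and 8.64 on doubly heterozygous arrays, 8.43, 8.98, 8.56 and 9.01 on Pax5+/- arrays, and 8.97, 8.80, 9.04 and 8.72 on WT arrays. It passed in no comparison, and the Pax5+/- arrays held both its lowest value and one of its highest. The differences were -0.06 in Cd72+/-;Pax5+/- against Pax5+/- (95% interval -0.32 to 0.21), -0.14 in Pax5+/- against WT (-0.4 to 0.13) and -0.20 in Cd72+/-;Pax5+/- against WT (-0.46 to 0.07). Lef1 had signals of 10.70, 10.67, 10.68 and 10.63 on doubly heterozygous arrays, 10.44, 10.90, 10.45 and 10.76 on Pax5+/- arrays, and 10.89, 10.44, 10.92 and 10.48 on WT arrays. It too passed in none, with group means of 10.67, 10.64 and 10.68 in Cd72+/-;Pax5+/-, Pax5+/- and WT. Its 95% intervals were -0.24 to 0.31, -0.32 to 0.23 and -0.29 to 0.26 for Cd72+/-;Pax5+/- against Pax5+/-, Pax5+/- against WT and Cd72+/-;Pax5+/- against WT.

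Several members differed between arrays of the same genotype by as much as between genotypes. The gap between the closest pairs, taken as arrays 5 and 7 minus arrays 6 and 8 in WT, was 0.48 for Tcf12, 0.46 for Id3, 0.45 for Lef1 and 0.37 for Tcf4. Taken as arrays 1 and 3 minus arrays 2 and 4 in Pax5+/-, it was -0.50 for Bach2, -0.42 for Pax5, -0.40 for Foxo1 and -0.39 for Lef1. Among doubly heterozygous arrays, as arrays 9 and 10 minus arrays 11 and 12, it lay between -0.04 for Ebf1 and 0.20 for Id3. For 5 members, Tcf4, Tcf12, Foxo1, Bach2 and Lef1, a gap within Pax5+/- or WT was larger than the difference between those groups, and for the other 5 it was smaller. Lef1, Bach2, Foxo1, Tcf12, Tcf4 and Ebf1 had gaps of opposite sign in Pax5+/- and WT, and Pax5, Tcf3, Id2 and Id3 had gaps of the same sign.

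**Figure D3:**
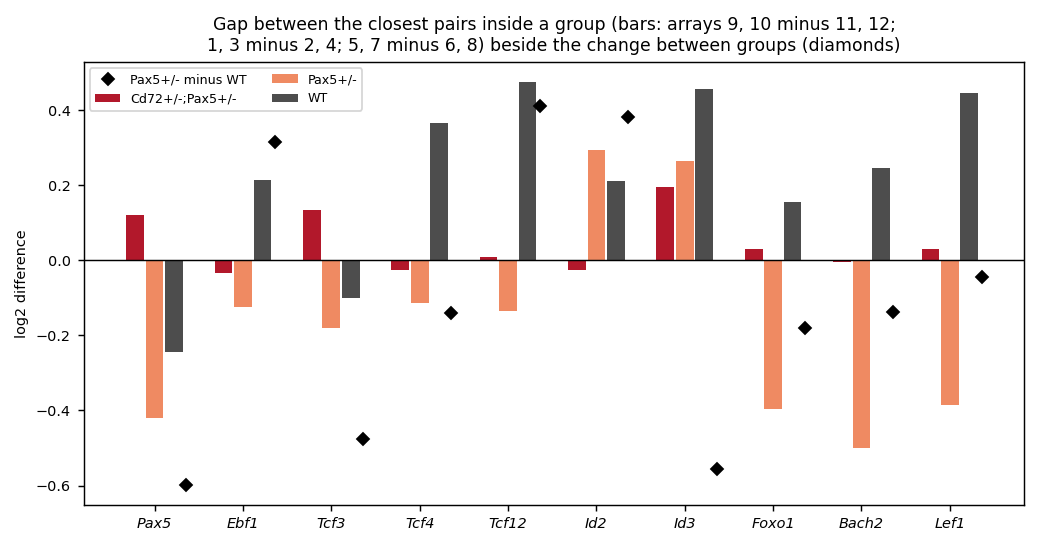
Bars give, for each factor, the log2 gap between the closest pairs of arrays within a genotype, and diamonds give the Pax5+/- minus WT difference. The WT bar for Lef1 stands at 0.45 and the Pax5+/- bar at -0.39, while its diamond is at -0.05.

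The same pairs differed in markers of bone-marrow stroma. The mean of 12 stromal markers was 6.61 to 6.91 on doubly heterozygous arrays, 8.06 and 8.16 on Pax5+/- arrays 1 and 3, 6.92 and 6.96 on arrays 2 and 4, 8.05 and 8.07 on WT arrays 5 and 7, and 7.4 on each of arrays 6 and 8. Of the 12, Bgn, Cxcl12 and Sparc fell in Cd72+/-;Pax5+/- against WT, where 3.66% of all clusters fell. Cxcl12 fell in Cd72+/-;Pax5+/- against Pax5+/- (5.35% of all clusters fell), and none passed in Pax5+/- against WT (7.47% passed). None of these 4 calls was kept with the pairs averaged (adjusted p 0.406 to 0.558). The mean of 13 pro-B and pre-B markers was 10.8 to 11.0 in Cd72+/-;Pax5+/-, 11.1 to 11.3 in Pax5+/- and 10.5 to 11.4 in WT, where arrays 6 and 8 were low. Dntt was at 11.93 and 11.92 on WT arrays 5 and 7 and at 9.76 and 9.82 on arrays 6 and 8. The part of these markers in the members' values was not tested. Without arrays 1, 3, 5 and 7, which leaves 1 pair in Pax5+/- and in WT, members passing numbered 3 in Cd72+/-;Pax5+/- against Pax5+/- (Tcf3, Tcf12 and Bach2), 8 in Pax5+/- against WT (the original 6 with Bach2 and Lef1) and 4 in Cd72+/-;Pax5+/- against WT (Pax5, Ebf1, Foxo1 and Lef1), beside 20.3%, 22.9% and 18.9% of all clusters. The Pax5+/- and WT spread in this fit came from 1 close pair each, so its p-values take in no variation between pairs of these groups. Tcf12 was then 0.72 higher in Pax5+/- than in WT, Lef1 was 0.37 higher and Bach2 was 0.24 higher on the log2 scale. Foxo1 in Cd72+/-;Pax5+/- minus Pax5+/- was then 0.09 (adjusted p = 0.322).

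Relatives and targets of the members were counted in the same way, beside 9.79%, 7.47% and 7.78% of all clusters passing in Cd72+/-;Pax5+/- against Pax5+/-, Pax5+/- against WT and Cd72+/-;Pax5+/- against WT. With so few relatives in each family, their counts do not stand apart from these shares. None of 8 other Pax genes and none of 3 other Ebf genes passed in any comparison. Among 8 further helix-loop-helix genes Tal1, a haematopoietic partner of E proteins, rose by 0.37 in Pax5+/- against WT and by 0.38 in Cd72+/-;Pax5+/- against WT, and Id1 was 7.24, 7.10 and 7.07 in Cd72+/-;Pax5+/-, Pax5+/- and WT without passing. Foxo4 rose by 0.27 in Pax5+/- against WT, the only call among 4 Foxo and Foxp1 genes. Of 6 measured Tcf/Lef relatives and co-factors, the co-repressor Tle3 rose by 0.56 in Cd72+/-;Pax5+/- against Pax5+/- and fell by 0.56 on the log2 scale in Pax5+/- against WT, and Tcf7l2 fell by 0.70 on the log2 scale in Cd72+/-;Pax5+/- against WT. None of 4 genes of Bach1 and its small Maf partners passed. No call in these families was kept with the pairs averaged.

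Genes known to be activated by Pax5 moved in both directions. Of 13 measured, 3 rose and 5 fell in Cd72+/-;Pax5+/- against Pax5+/-, 4 rose and 3 fell in Pax5+/- against WT, and 1 rose and 4 fell in Cd72+/-;Pax5+/- against WT. The list medians were -0.21, 0.02 and -0.15. Bst1, a surface enzyme of early B cells, averaged 9.36 ± 0.111 on doubly heterozygous arrays, 7.28 ± 0.145 on Pax5+/- arrays and 9.28 ± 0.519 on WT arrays, and Spib, an Ets factor of B cells, averaged 8.6 ± 0.077, 7.71 ± 0.387 and 8.98 ± 0.187 in the same order. Bst1, Spib and Cd79a, a chain of the B-cell receptor, had the pattern of Tcf3: each rose in Cd72+/-;Pax5+/- against Pax5+/- (2.09, 0.89 and 0.30) and fell in Pax5+/- against WT (-2.01, -1.27 and -0.33). Ikzf3, which encodes the Ikaros-family factor Aiolos, fell in Cd72+/-;Pax5+/- against both Pax5+/- and WT (-1.51 and -1.14) and rose by 0.37 in Pax5+/- against WT. Cd72 itself is on the list, and it fell by 2.68 on the log2 scale in Cd72+/-;Pax5+/- against Pax5+/- and rose by 1.29 in Pax5+/- against WT. Its falls in both comparisons of Cd72+/-;Pax5+/- are in the counts and medians above, although the genotype itself differs at Cd72. They cannot be read as changes of a Pax5 target alone. With the pairs averaged, Bst1, Cd72, Ikzf3 and Capn2 still passed in Cd72+/-;Pax5+/- against Pax5+/-, Capn2 in Pax5+/- against WT and Ikzf3 in Cd72+/-;Pax5+/- against WT.

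Genes known to be repressed by Pax5 included Ccl3 and Flt3, which rose in both heterozygous groups against WT, and Grap2, which fell in both. Of 13 measured, 4 rose and 2 fell in Pax5+/- against WT (list median 0.40), 2 rose and 1 fell in Cd72+/-;Pax5+/- against WT (0.01), and none rose and 2 fell in Cd72+/-;Pax5+/- against Pax5+/- (-0.03). Ccl3, a chemokine, averaged 9.97 ± 0.028 on doubly heterozygous arrays, 9.55 ± 0.14 on Pax5+/- arrays and 6.72 ± 0.52 on WT arrays, and Flt3, a cytokine receptor of lymphoid progenitors that Pax5 silences, averaged 10.21 ± 0.056, 10.05 ± 0.123 and 8.98 ± 0.229. Both rose against WT in either heterozygous group, Ccl3 by 3.25 in Cd72+/-;Pax5+/- and 2.83 in Pax5+/- and Flt3 by 1.23 and 1.07. Of these 4 calls, 3 passed with the pairs averaged, and Flt3 in Pax5+/- against WT had an adjusted p of 0.0519. Cd33 rose by 0.92 and Cd28 by 0.40 in Pax5+/- against WT, whereas Xbp1 and Grap2 on the same list fell by 1.06 and by 0.67 on the log2 scale. No call on this list other than those of Ccl3 and Flt3 was kept with the pairs averaged.

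Among 11 measured targets of Ebf1 and the E proteins, 1 rose and 3 fell in Cd72+/-;Pax5+/- against Pax5+/-, 1 rose and 1 fell in Pax5+/- against WT, and none rose and 3 fell in Cd72+/-;Pax5+/- against WT. The list medians were -0.16, 0.23 and 0.08. Dntt averaged 8.52 ± 0.242 on doubly heterozygous arrays, 10.64 ± 0.127 on Pax5+/- arrays and 10.86 ± 1.23 on WT arrays, and Blk, a Src-family kinase of B cells, averaged 9.63 ± 0.078, 11 ± 0.101 and 10.38 ± 0.558. Both fell in Cd72+/-;Pax5+/- against Pax5+/- (-2.12 and -1.37) and against WT (-2.34 and -0.76). The surrogate light chain genes Vpreb1 and Igll1 and the recombination genes Rag1 and Rag2 passed in no comparison. Vpreb1, for example, averaged 12.67 in Cd72+/-;Pax5+/-, 12.59 in Pax5+/- and 12.31 in WT. Rag1 was at 11.56 to 11.69 on doubly heterozygous arrays and at 11.24 to 11.42 on Pax5+/- arrays, without overlap, as in 18.5% of all clusters. On WT arrays it was at 10.6 to 11.83, and the fit shares its error over all 3 groups, so this spread enters every comparison. None of the calls on this list was kept with the pairs averaged.

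**Figure D4:**
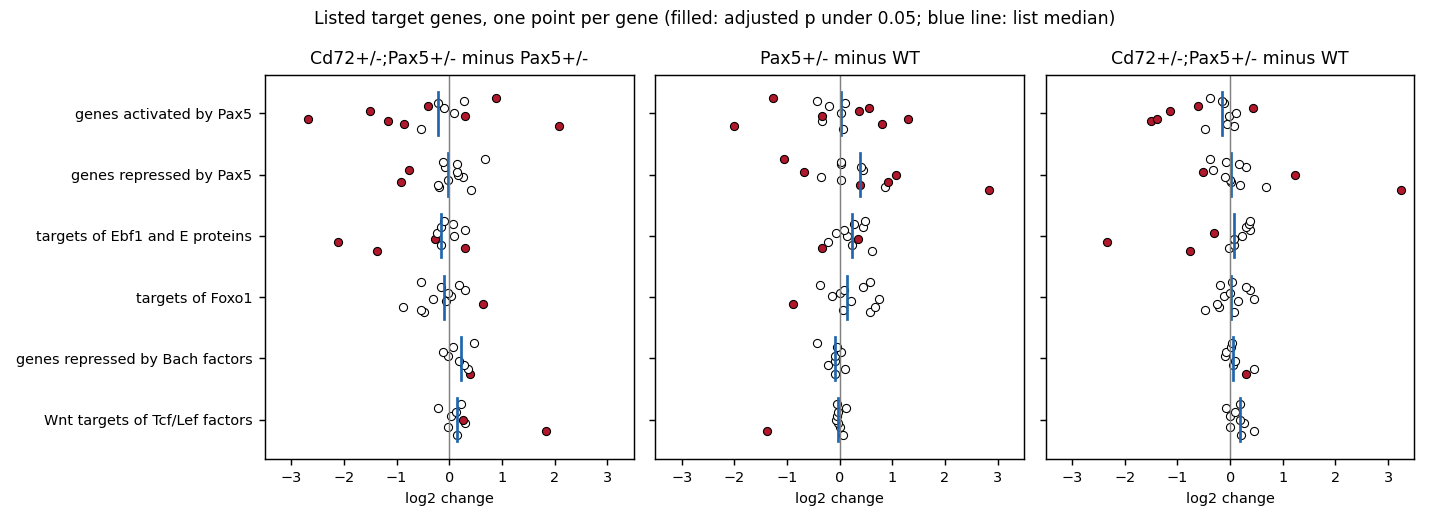
The log2 change of each measured gene on the 6 lists of known targets in the 3 comparisons, filled where the adjusted p was under 0.05, with the list median as a blue line. Filled points lie on both sides of 0 for genes activated by Pax5, and Ccl3 is the farthest right in the middle and right panels, at 2.83 and 3.25.

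Targets of Foxo1, Bach and Tcf/Lef factors gave between 0 and 2 calls per list and comparison, which with lists this short does not set them apart from the shares of all clusters. Of 12 measured Foxo1 targets, the chemokine receptor gene Ccr7 alone passed, with means of 8.82 ± 0.057 in Cd72+/-;Pax5+/-, 8.18 ± 0.098 in Pax5+/- and 9.08 ± 0.24 in WT. It rose by 0.64 in Cd72+/-;Pax5+/- against Pax5+/- and fell by 0.89 on the log2 scale in Pax5+/- against WT. Il7r, the interleukin-7 receptor chain on which pro-B cells depend, was 12.22 ± 0.021, 12.53 ± 0.042 and 11.78 ± 0.786 in Cd72+/-;Pax5+/-, Pax5+/- and WT without passing. Its doubly heterozygous arrays (12.2 to 12.24) and Pax5+/- arrays (12.48 to 12.58) did not overlap, and the wide WT spread enters the shared error. Of 8 genes repressed by Bach factors, Fth1, the ferritin heavy chain, rose by 0.40 in Cd72+/-;Pax5+/- against Pax5+/- and by 0.31 in Cd72+/-;Pax5+/- against WT, while Prdm1, the plasma-cell repressor, was at 4.85 to 5.01 in doubly heterozygous, 4.98 to 5.16 in Pax5+/- and 4.96 to 5.06 in WT cells. Of 9 Wnt targets of Tcf/Lef factors, Ccnd1, which encodes cyclin D1, averaged 9.80 ± 0.071 in Cd72+/-;Pax5+/-, 7.97 ± 0.269 in Pax5+/- and 9.35 ± 0.221 in WT. It rose by 1.84 in Cd72+/-;Pax5+/- against Pax5+/- (adjusted p = 1.15e-06, and 0.0205 with pairs averaged) and fell by 1.38 on the log2 scale in Pax5+/- against WT (adjusted p = 1.63e-05, and 0.0505 with pairs averaged), and Axin2, a general Wnt target, was 7.04, 6.90 and 6.83 without passing. Nkd1 rose by 0.26 in Cd72+/-;Pax5+/- against Pax5+/-. With the pairs averaged, no call of Ccr7, Fth1 or Nkd1 was kept (adjusted p 0.0682 to 0.348). The list medians in Cd72+/-;Pax5+/- against Pax5+/-, Pax5+/- against WT and Cd72+/-;Pax5+/- against WT were -0.11, 0.15 and 0.02 for Foxo1 targets, 0.23, -0.09 and 0.05 for Bach targets, and 0.14, -0.04 and 0.18 for Wnt targets.

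The genes whose signal ran most like that of a member over the 12 arrays are given as a description, since the arrays share 3 genotypes and the close pairs. They were sought among 9961 genes whose mean signal was above the median. Closest to Pax5 were Itpr3 (Pearson r = 0.964), Jade2 (0.962) and Grap2 (0.953). Closest to Ebf1 were Tet2 (0.98), Fam167a (0.972) and Phf21a (0.961), and closest to Tcf3 were Prex1 (0.978), Mfsd13a (0.968) and Epha2 (0.963). Tcf12 was closest to Ctns (0.987), Cybb (0.985) and Mxd4 (0.984), and Tcf4 to Trim12a (0.962), Clcf1 (0.957) and Mir342 (0.925). For Id2 the nearest was Tex264 (0.96), for Id3 Kif11 (0.922), for Foxo1 Rasgrp2 (0.941), for Bach2 Arhgap26 (0.956) and for Lef1 Kansl1 (0.951).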

How the data were processed

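The 12 arrays were measured on the Affymetrix Mouse Gene 1.0 ST platform. The table deposited by the authors holds a log2 signal per transcript cluster (3.67 to 14.73, array medians 6.91 to 7.005). Per the series' design text and the submitters' processing notes it was made with the Transcriptome Analysis Console (4.0.3). Background correction, normalization and probe positions are not stated. Clusters were named through the platform annotation, and 23410 of 28944 clusters had a symbol.

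A mean per group was fitted to all 12 arrays with limma 3.58.1 in R 4.3.3 (9 residual and 3.28 prior degrees of freedom), with no filter on signal, and p-values were adjusted by Benjamini-Hochberg over the 23410 clusters at a threshold of 0.05. Groups came from the sample titles. Intervals are 95% confidence intervals of the contrast. The script was tested on simulated data. Summaries and figures used Python 3.11.15, pandas 2.3.3, scipy 1.17.1 and matplotlib 3.10.9.

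The members, the lists of relatives, targets and cell-type markers were chosen with earlier results of these data known, from general knowledge. All members are named in each comparison, and in each list up to 4 called genes with the smallest adjusted p and up to 2 by value only, and likeness names up to 3 genes per member. Names beyond this rule, such as the third or later examples in a list and defining markers, were chosen after their values were seen. Listed genes without a cluster of their own symbol were not analysed here, nor was a Tcf4 promoter. The alternatives were quantile or median scaling, a filter on dim clusters, all clusters, another variance prior, only the compared groups, closest pairs averaged or as a block, arrays 1, 3, 5 and 7 left out, each array left out, and a threshold of 0.1. The study's threshold was p under 0.05 with over 2-fold change, which no member met.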

Additional observations from a re-analysis of the deposited data

How the results depend on the processing

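Averaging the closest pairs, which leaves 2 units per group, lowered the clusters called to 420 in Cd72+/-;Pax5+/- against Pax5+/- (2292 with all arrays as replicates), 282 in Pax5+/- against WT (1749) and 290 in Cd72+/-;Pax5+/- against WT (1821), and the members called to 0 in each. That fit has 3 residual degrees of freedom. A random block for the pairs (correlation 0.427) gave 1398, 1133 and 1031 clusters and, in Cd72+/-;Pax5+/- against WT, 0 members. The pairs were picked as the closest in these same data, so this correlation is no independent estimate of a pair effect. Without arrays 1, 3, 5 and 7 the clusters called were 4757, 5359 and 4427, and 4 members passed in Cd72+/-;Pax5+/- against WT. That fit holds 1 close pair in Pax5+/- and in WT and so takes in no variation between pairs there. With only the compared groups in the model 3 members passed in Pax5+/- against WT, and 1 passed in Cd72+/-;Pax5+/- against WT after quantile normalization and 1 with a trended, robust prior. Leaving out each array in turn gave 1667 to 2469, 1338 to 1959 and 1257 to 2052 clusters, and 2 to 4, 4 to 6 and 0 to 3 members. The cause of these shifts was not tested.

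Changes of sign were found only at members that had not passed. Without arrays 1, 3, 5 and 7 the differences became -0.16 for Lef1 in Cd72+/-;Pax5+/- against Pax5+/-, 0.10 for Tcf4, 0.095 for Foxo1, 0.24 for Bach2 and 0.37 for Lef1 in Pax5+/- against WT, and 0.17 for Tcf4, 0.18 for Tcf12, 0.10 for Id2 and 0.21 for Lef1 in Cd72+/-;Pax5+/- against WT. In that last comparison quantile normalization gave 0.0091 for Tcf4, 0.0073 for Id2 and 0.0111 for Lef1, and a common median gave 0.0063 for Id2. Leaving out single arrays gave -0.16 to 0.031 for Bach2 and -0.033 to 0.12 for Lef1 in Cd72+/-;Pax5+/- against Pax5+/-, -0.13 to 0.034 for Lef1 in Pax5+/- against WT, and -0.079 to 0.051 for Tcf4, -0.14 to 0.023 for Tcf12, -0.045 to 0.059 for Id2 and -0.093 to 0.067 for Lef1 in Cd72+/-;Pax5+/- against WT. Over all members, comparisons and alternatives, 563 values kept their direction and side of the threshold, 56 lost the threshold, 8 newly passed it with the same sign and 33 changed sign, 3 of which also passed (Bach2 and Lef1 in Pax5+/- against WT and Lef1 in Cd72+/-;Pax5+/- against WT, without arrays 1, 3, 5 and 7). Each member has 1 cluster, so averaging the clusters of a gene changed nothing. No paired analysis was possible because the titles number the arrays 1 to 12 and no number is shared between groups.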

Other observations

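Markers of later B cells formed a gene group outside the network above. Of 8 measured, 4 rose in Cd72+/-;Pax5+/- against Pax5+/-, 3 rose and 1 fell in Cd72+/-;Pax5+/- against WT, and 1 rose and 2 fell in Pax5+/- against WT. Of all clusters, 4.44% rose in the first of these comparisons, 4.12% rose and 3.66% fell in the second, and 4.28% rose and 3.2% fell in the third. Cxcr5 fell in both comparisons against WT, and Ccr7 fell in Pax5+/- against WT. Cd74, the invariant chain of class II antigen presentation, averaged 8.79 ± 0.088 on doubly heterozygous arrays, 6.62 ± 0.066 on Pax5+/- arrays and 6.99 ± 0.337 on WT arrays (SD, n = 4 each). The class II gene H2-Aa averaged 5.82 ± 0.161, 5.13 ± 0.043 and 5.08 ± 0.062, and Cd22, an inhibitory receptor of B cells, averaged 8.43 ± 0.078, 7.96 ± 0.105 and 7.57 ± 0.038 in the same order. H2-Aa was dim, as the 25th percentile of the mean signals of all clusters was 5.762. With the closest pairs averaged, Cd74 and H2-Aa still passed in both comparisons of Cd72+/-;Pax5+/- (adjusted p 0.0123 to 0.0265), and Cd22 passed against WT (0.0163). In both comparisons genotype and sex cannot be told apart.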
